A study of Mus musculus with 11 samples.

Results

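The AP-1 family transcription factors were followed gene by gene in the epidermis of mice with and without Langerhans cells (LCs). The 10 members were Fos, Fosb, Fosl1, Fosl2, Jun, Junb, Jund, Atf3, Batf and Maff, taken by gene symbol from the 52550 genes of the deposited table, and 10 of 10 were among the 14419 genes tested. Keratinocytes (KCs) and dendritic epidermal T cells (DETCs) were sorted from flank skin of 8 week old female mice of 2 genotypes. The LC-/- mice carry the huLangerin-DTA transgene, in which the human Langerin promoter drives diphtheria toxin subunit A so that LCs are missing from birth, and the WT mice were littermates without it. There were 3 WT KC, 3 LC-/- KC, 3 WT DETC and 2 LC-/- DETC libraries, and LC-/- replicate 1 had no DETC library here. KCs were gated as negative for MHC-II, CD45, langerin and c-kit, and DETCs as CD45-positive cells negative for the other markers. All cells of both genotypes went through trypsin digestion of the epidermis and sorting before RNA was taken, so levels in undisturbed skin were not measured.

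AP-1 is a dimer of basic leucine zipper proteins that binds the sequence TGANTCA. Fos proteins (Fos, Fosb, Fosl1 or FRA-1, Fosl2 or FRA-2) cannot pair with themselves and need a Jun protein (Jun, Junb, Jund), whereas Jun proteins can also pair with each other. Atf3, Batf and Maff are relatives: Atf3 is a stress-induced factor of the ATF group, Batf a small protein that pairs with Jun proteins in lymphocytes, and Maff a small Maf protein without an activation domain of its own. Several members are immediate early genes, transcribed within minutes of a stimulus through MAP kinases. In the epidermis Jun, Fosl1 and Fosl2 are known for their part in keratinocyte growth and differentiation.

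The sequences just before the start sites of these genes were searched because AP-1 and CREB sites there are a known route by which family members control each other. RefSeq promoters (GRCm38.p6) were at hand for 9 of 10 members, all but Fosl1, in 11 windows of 250 bases. The motifs, searched on both strands, were the AP-1 site TGANTCA, the cAMP response element TGACGTCA, the CArG box bound by serum response factor, and the TATA motif TATAAA. An AP-1 site was in 0 of the 11 windows, against 6.75% of all 32851 promoter windows, and a CArG box was in 0 against 1.47%. The cAMP response element was found for 1 member, Maff, against 1.55% of all windows, and the TATA motif for 1 member, Fos, against 12.4%. These 2 windows are printed because they hold the matches, which stand in capitals. The Fos window lies at chr12:85473640-85473889 on the plus strand, and its match starts 33 bases before the start site. The Maff window is the second of 3 listed for that gene, at chr15:79347270-79347519 on the plus strand, inside the annotated gene, and its match starts 29 bases before that start site. A match is a run of letters and was not tested for binding. Only exact matches within the 250 bases were counted, so variant motifs and sites further from the start were not searched. With 11 windows, these counts do not show that a motif is missing from the family.
Fos: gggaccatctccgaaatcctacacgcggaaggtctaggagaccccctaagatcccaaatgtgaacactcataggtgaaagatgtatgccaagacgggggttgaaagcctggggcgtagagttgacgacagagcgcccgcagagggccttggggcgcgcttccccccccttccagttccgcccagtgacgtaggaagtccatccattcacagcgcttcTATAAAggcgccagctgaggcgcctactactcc
Maff: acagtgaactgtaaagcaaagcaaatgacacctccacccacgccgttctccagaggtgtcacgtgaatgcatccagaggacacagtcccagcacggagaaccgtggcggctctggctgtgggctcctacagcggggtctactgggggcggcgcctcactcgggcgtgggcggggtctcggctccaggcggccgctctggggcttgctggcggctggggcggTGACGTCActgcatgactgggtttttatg

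The libraries held 13491075 to 19750440 reads on genes. Cd207, which encodes langerin and is expressed by LCs, was at 6.15, 26.9 and 15.6 normalized counts in WT KCs and 0 in all 3 LC-/- KC libraries. In DETCs it was at 21.8, 16.5 and 46.7 in WT libraries and 0 and 4.42 in LC-/- libraries. The KC libraries carried the 24 keratinocyte markers at a summed 750854 to 804398 normalized counts. The DETC libraries carried the 18 T cell markers at 249436 to 267904, against 353 to 672 in KC libraries. Keratinocyte RNA was also present in every DETC library. Measured as the median of the 24 markers over their mean in KCs of the same genotype, its share was 15.3%, 15.8% and 18.8% in WT DETC replicates 1 to 3, and 26.4% and 16.4% in LC-/- DETC replicates 2 and 3. LC-/- DETC replicate 2 thus stood above the other 4. Markers of alpha-beta T cells summed to 9798 to 11751 in WT DETCs and 7563 to 13946 in LC-/- DETCs. Markers of mast cells, melanocytes, fibroblasts and endothelium each summed to at most 573 in any library. That highest sum was Kit alone, in WT DETC replicate 3, and the other 4 mast cell markers were at 0 in every DETC library. The 10 Langerhans cell markers summed to 329 to 495 in WT and 163 to 264 in LC-/- KCs, and to 1626 to 1934 in WT and 1147 to 1249 in LC-/- DETCs. Of the 8 tested, 3 were called lower in KCs and 4 in DETCs. The DETC sums are not a measure of LC RNA alone. Itgax and Mfge8, which were not called, had the highest means there, at 471 and 588 in WT and 436 and 529 in LC-/- DETCs. H2-Aa, which was called, had means of 65.5 and 7.40.

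The plot of normalized counts by library shows each member on its own scale. Normalized counts compare libraries for a gene, and TPM, in which reads are divided by gene length and scaled to a fixed sum per library, compare genes within a library.

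**Figure D1:**
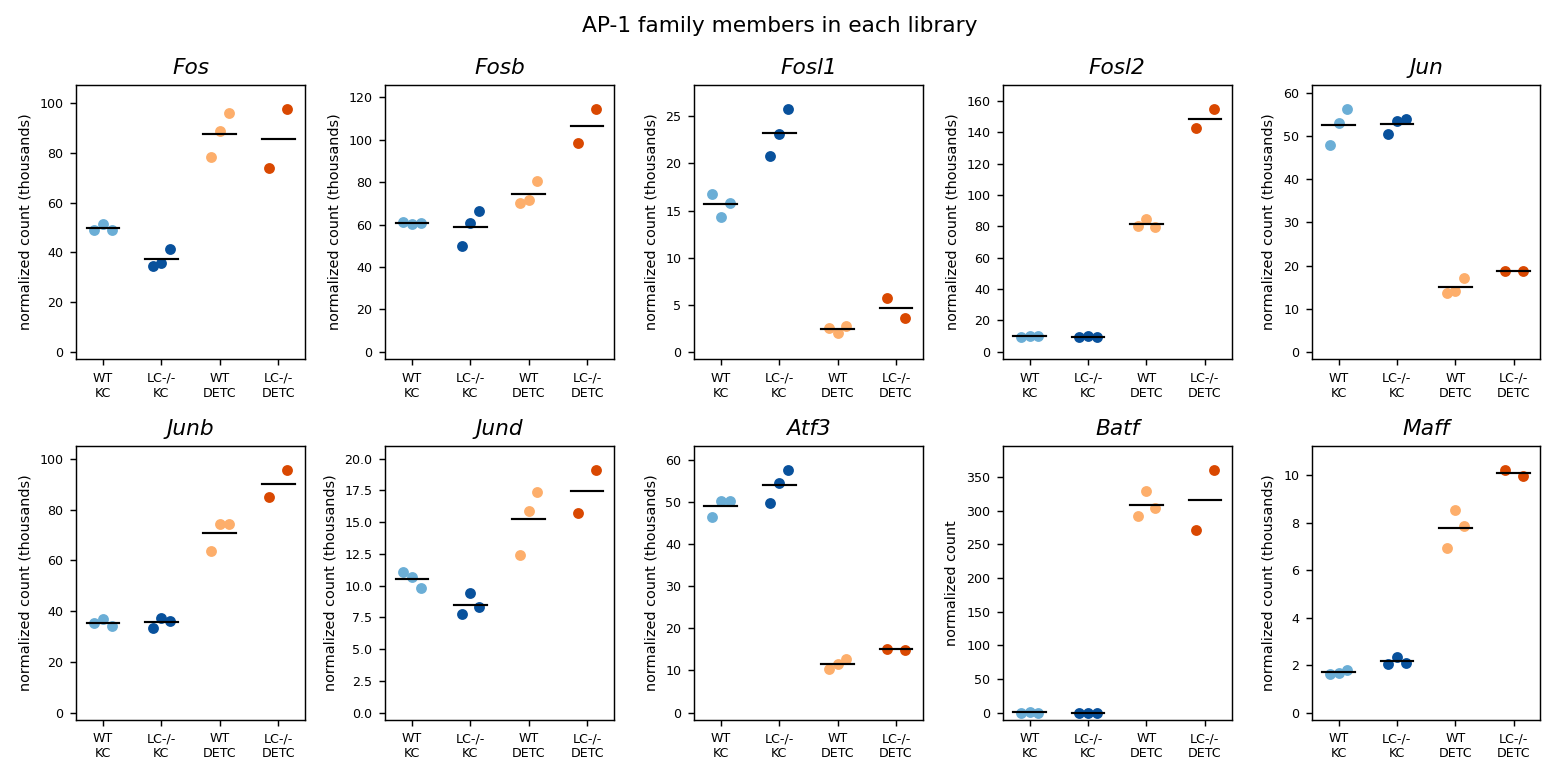
Normalized counts (vertical axis, linear from 0, with the scale marked on each axis) of the 10 members in each library of the 4 groups; points are libraries and bars are group means. Fosl2 was at 79552 to 84691 in WT DETCs and at 142781 and 154870 in LC-/- DETCs, while Fosl1 in KCs moved from 14357 to 16795 up to 20753 to 25761.

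Several members were among the most abundant mRNAs of both sorted populations. The 10 members took 1.73% to 2.17% of the reads of KC libraries and 2.24% to 2.88% of those of DETC libraries. In WT KCs, Atf3 had the highest level per length, with 5387 ± 525 TPM (SD, n = 3), the 17th highest of all genes. Fos followed with 5023 ± 403 TPM, and the ranges of these 2 genes overlapped. Jun at 3906 ± 475 TPM and Junb at 3650 ± 290 TPM came next, again with overlapping ranges. Below them stood Fosb at 2305 ± 113, Fosl1 at 1819 ± 53.1 and Jund at 1491 ± 96.0 TPM, each apart from its neighbours. Fosl2 at 242 ± 22.7 and Maff at 155 ± 12.8 TPM were lower by far, and Batf was near 0. The Fos protein genes of KCs were therefore ordered Fos, Fosb, Fosl1 and Fosl2, with no overlap between neighbours over the 3 libraries.

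In WT DETCs the order differed. Fos was highest with 8039 ± 503 TPM (SD, n = 3), the 4th highest of all genes, and Junb was next with 6622 ± 229 TPM, the 7th highest. Fosb stood at 2565 ± 164 TPM. Jund at 1959 ± 242 and Fosl2 at 1818 ± 90.0 TPM had overlapping ranges. Atf3 at 1146 ± 74.0 and Jun at 1016 ± 106 TPM overlapped too. Maff at 645 ± 35.7, Fosl1 at 260 ± 46.8 and Batf at 47.3 ± 1.65 TPM closed the order. The Jun protein with the highest level was thus Junb in DETCs, whereas in KCs Jun and Junb overlapped.

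**Figure D2:**
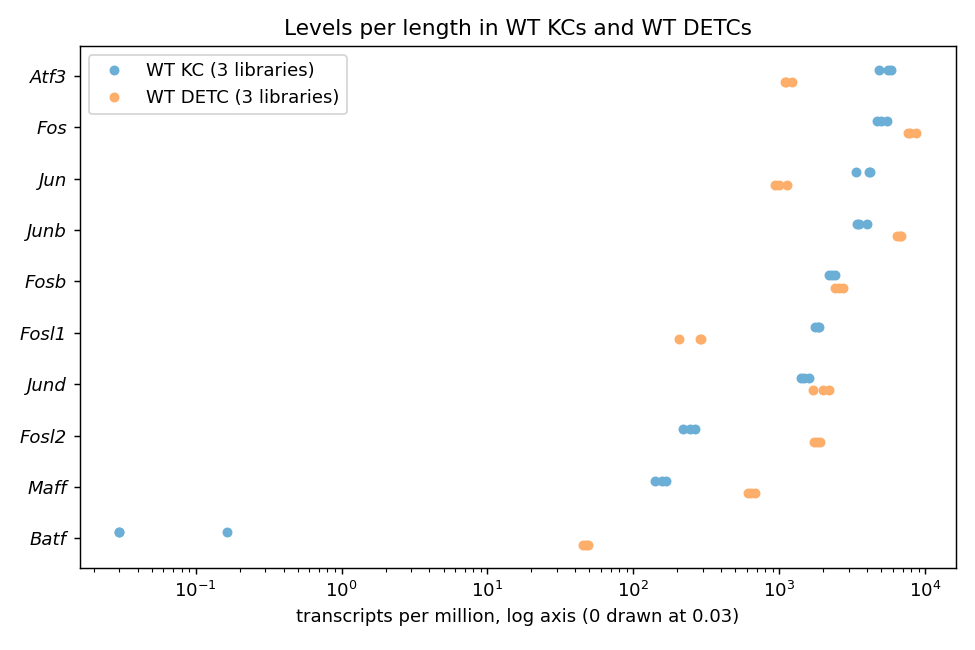
TPM of each member (horizontal log axis, with 0 drawn at 0.03) in the 3 WT KC and 3 WT DETC libraries, ordered by the WT KC mean. Fosl2, Maff and Batf lie to the right in DETCs, and Fosl1, Jun and Atf3 to the left.

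WT DETCs and WT KCs were compared on normalized counts with limma, with p-values adjusted by Benjamini-Hochberg over the 14419 genes. The member with the largest difference among those above the floor in both populations was Fosl2, at 9509, 10273 and 9899 normalized counts in WT KCs and 80394, 84691 and 79552 in WT DETCs. The groups lay far apart, with an 8.24-fold higher level in DETCs (95% interval 6.97 to 9.75, adjusted p = 7.4e-09). Maff, at 1642, 1645 and 1805 in WT KCs, was at 6933, 8520 and 7869 in WT DETCs. This was 4.57-fold higher (adjusted p = 1.79e-08). Batf was absent or nearly so from KCs, with 1 read over the 3 WT KC libraries, and was read 979 times over the 3 WT DETC libraries. After scaling for depth the ratio was 996, with a 95% counting interval of 178 to 39373 that covers counting error only.

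Of the more abundant members, Fos was at 49177, 51537 and 48846 normalized counts in WT KCs and 78271, 88964 and 96317 in WT DETCs, 1.76-fold higher (adjusted p = 0.00109). Junb rose from 35463, 36772 and 34113 to 63778, 74130 and 74432, or 1.99-fold (adjusted p = 1.25e-04). Jund was 1.44-fold higher (adjusted p = 0.00456), from 9820 to 11037 in WT KCs to 12405 to 17382 in WT DETCs. Fosb, at 60503 to 61298 in WT KCs and 70250 to 80782 in WT DETCs, did not overlap between the groups but missed the threshold (log2 difference 0.29, SE 0.15, adjusted p = 0.116). In all, 6 of 10 members were called higher in DETCs, where 41.0% of all tested genes were, and 3 of 10 were called lower, where 35.1% were. Most genes differed between the 2 populations, so these shares say little about the family. With quantile normalization 4693 genes were called higher and 6658 lower, against 5906 and 5059, and the median of all genes moved from 0.07 to -0.24 on the log2 scale. Under that scaling the difference of Jund was 0.23 (adjusted p = 0.06), while that of Fosb was 0.35 and passed the threshold (adjusted p = 0.00348).

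The 3 members that were lower in DETCs were Fosl1, Jun and Atf3. Fosl1 was at 16795, 14357 and 15829 normalized counts in WT KCs and 2567, 2015 and 2755 in WT DETCs, a 6.44-fold difference (adjusted p = 3.47e-08). Jun fell from 48071, 53143 and 56262 to 13718, 14207 and 17193, or 3.50-fold lower (adjusted p = 1.03e-06). Atf3 fell from 46378, 50190 and 50227 to 10300, 11481 and 12624, or 4.28-fold lower (adjusted p = 1.39e-07). For these 3 genes the keratinocyte share of the library would hold a large part of the DETC value. The share times the KC mean of the same genotype came to 93.4% to 122% of the measured Fosl1 value, 59.4% to 94.9% of that of Atf3 and 46.6% to 74.9% of that of Jun over the 5 DETC libraries. It came to 1.01% to 2.34% for Fosl2, 3.14% to 5.57% for Maff and at most 15.9% for Fos, Fosb, Junb and Jund. The Fosl1 level of DETCs thus cannot be told apart from keratinocyte RNA. By this median share, part of the Atf3 and Jun counts exceeded it, and nearly all of the Fosl2, Maff and Batf counts did. Single markers departed from the median. In mean normalized counts, Krt1 was at 21185 in WT KCs and 1974 in WT DETCs, and Dmkn at 11519 and 5434. Whether Atf3 and Jun exceed the share that such single markers give was not tested.

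**Figure D3:**
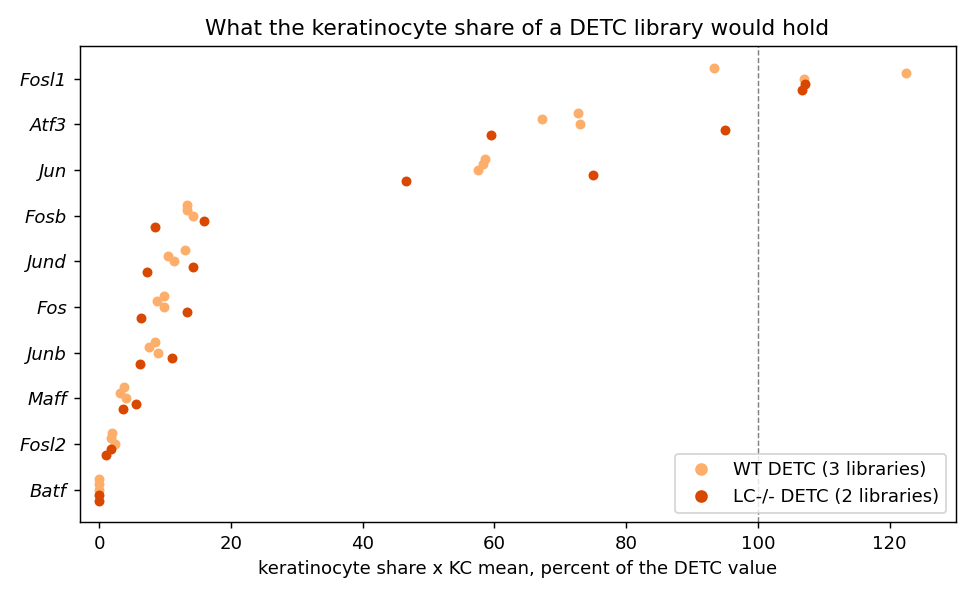
The keratinocyte share of each DETC library times the mean KC count of the same genotype, as a percent of the measured DETC count, for each member. Points are the 3 WT and 2 LC-/- DETC libraries. Fosl1 lies at 93.4% to 122% and Fosl2 at 1.01% to 2.34%.

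In KCs, the absence of LCs was accompanied by higher Fosl1 and Maff. Fosl1 was at 16795, 14357 and 15829 normalized counts in WT and 20753, 23089 and 25761 in LC-/- KCs, and the groups did not overlap. The difference was 1.48-fold (95% interval 1.22 to 1.79, limma adjusted p = 0.0453). Maff, at 1642, 1645 and 1805 in WT, was at 2048, 2321 and 2087 in LC-/- KCs, again without overlap and 1.27-fold higher (adjusted p = 0.047). These were 2 of 10 members called higher, where 5.37% of the tested genes were (775 genes, with 267 lower), and both adjusted p-values lay just under 0.05. Leaving out any of the 6 libraries took both calls above the threshold, with adjusted p of 0.08 to 0.137 for Fosl1 and 0.0621 to 0.149 for Maff, although both stayed higher in each fit.

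Fos and Jund lay lower in LC-/- KCs. Fos was at 49177, 51537 and 48846 in WT and 34657, 35715 and 41374 in LC-/- KCs. No LC-/- library reached the lowest WT library, but the log2 difference of -0.42 (SE 0.11) missed the threshold (adjusted p = 0.0773). Jund, at 11037, 10681 and 9820 in WT and 7735, 9389 and 8270 in LC-/- KCs, also did not overlap (log2 difference -0.32, SE 0.09, adjusted p = 0.102). The 2 tests on recovered reads called both genes lower, with adjusted p for Fos of 6.24e-05 by DESeq2 and 0.0067 by edgeR, and for Jund of 0.00943 and 0.0361. Those tests called 4 of 10 members each, where 12.2% and 12.4% of genes were called. By position alone, 2 members lay wholly above the WT range, as did 16.6% of genes, and 2 wholly below it, as did 14.9%.

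The other members gave overlapping KC groups. Fosb was at 60503 to 61298 in WT and 49928, 60753 and 66387 in LC-/- KCs, so that the LC-/- libraries spread on both sides of the WT range (log2 difference -0.05, 95% interval -0.41 to 0.31). Fosl2, at 9115, 10161 and 9378 in LC-/- KCs, had a log2 difference of -0.05 (interval -0.20 to 0.10). Jun and Junb had log2 differences of 0.01 (interval -0.27 to 0.28) and 0.00 (interval -0.21 to 0.22). Atf3 was at 49641, 54357 and 57532 in LC-/- KCs, a log2 difference of 0.14 (interval -0.14 to 0.41). Batf had 0 reads in the 3 LC-/- KC libraries, and no fold is given because both groups were under 3 reads. In these sorted bulk libraries, fewer cells of a kind with the mRNA and less mRNA per cell cannot be told apart.

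In DETCs, Fosl2 was the only member that limma called higher. It was at 80394, 84691 and 79552 normalized counts in WT and 142781 and 154870 in LC-/- DETCs. Each LC-/- library was thus far above the highest WT library, at 1.82-fold (95% interval 1.39 to 2.39, limma adjusted p = 0.0359). It was 1 of 10 members called higher, where 3.13% of tested genes were (452 genes, with 62 lower). With quantile normalization 178 genes were called higher and 85 lower, and the Fosl2 log2 difference went from 0.87 to 0.44 (adjusted p = 0.0946). Among the 5 fits that leave out 1 library, the call held in 1, without WT replicate 1, and adjusted p reached 0.247, while the log2 difference stayed between 0.81 and 0.93. The keratinocyte share of the library would hold 1.77% of the Fosl2 count in LC-/- replicate 2 and 1.01% in replicate 3. The summed alpha-beta T cell markers of the 2 LC-/- libraries, at 7563 and 13946, lay on either side of the WT range.

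Fosl1 had the largest fitted difference in DETCs, from 2567, 2015 and 2755 in WT to 5727 and 3578 in LC-/- libraries (log2 difference 0.90, SE 0.21, adjusted p = 0.0578). The higher of the 2 LC-/- values was in replicate 2, the library with the 26.4% keratinocyte share. The share times the LC-/- KC mean came to 107% of the measured Fosl1 value in both LC-/- libraries. With that share subtracted from every DETC library, an alternative chosen after the data were seen, the log2 difference of Fosl1 was -2.47 (limma adjusted p = 0.697). Values under 0 were set to 0 there. Only WT replicate 1, where the share came to 93.4% of the count, kept a Fosl1 value above 0. In the other DETC libraries the share came to 107% to 122%, so the -2.47 rests on 1 WT library. Without LC-/- replicate 3 the unsubtracted difference was 1.24 (adjusted p = 0.0151), and without replicate 2 it was 0.56. A change of Fosl1 in DETCs and a change in keratinocyte RNA cannot be told apart here. Of the 24 keratinocyte markers, 21 had a positive difference in DETCs, with a median of 0.24, and 0 were called by limma (8 passed an unadjusted p of 0.05, all higher, and DESeq2 called 5 and edgeR 0).

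Of the remaining members, Fosb, Jun, Junb, Atf3 and Maff lay above the WT range in both LC-/- DETC libraries without passing the limma test. Fosb was at 70250, 71733 and 80782 in WT and 98255 and 114439 in LC-/- DETCs (log2 difference 0.52, SE 0.17, adjusted p = 0.15). Maff was at 6933, 8520 and 7869 in WT and 10216 and 9951 in LC-/- DETCs (0.38, SE 0.11, adjusted p = 0.109). Junb went from 63778, 74130 and 74432 to 84814 and 95616 (0.35, SE 0.17, adjusted p = 0.3). All 3 had at most 15.9% of their counts within reach of the keratinocyte share. Atf3, at 10300 to 12624 in WT and 14997 and 14899 in LC-/- DETCs, had a log2 difference of 0.39 (adjusted p = 0.112), which was -0.63 after that subtraction. The keratinocyte share came to 94.9% of the Atf3 count in LC-/- replicate 2 and 59.4% in replicate 3, against 67.1% to 73.0% in WT. After subtraction the 2 LC-/- libraries thus lay on opposite sides of the WT range, and the negative sign was not shared by both. Jun, at 13718 to 17193 in WT and 18616 and 18625 in LC-/- DETCs, had a log2 difference of 0.32 (adjusted p = 0.225), which was -0.01 with quantile normalization.

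Counted by position, 7 of 10 members lay wholly above the WT range in LC-/- DETCs, where 21.3% of tested genes did, and 0 lay wholly below it, where 16.5% did. DESeq2 on recovered reads called 6 of 10 members higher, namely Fosb, Fosl1, Fosl2, Junb, Atf3 and Maff, where 6.09% of genes were, and edgeR called 1, Fosl2, where 2.84% were. The members share their libraries and are not independent of each other. Fos was at 78271, 88964 and 96317 in WT and 74054 and 97660 in LC-/- DETCs, so the LC-/- libraries spanned the WT range (log2 difference -0.04, interval -0.49 to 0.40). Jund, at 12405, 15875 and 17382 in WT and 15728 and 19099 in LC-/- DETCs, overlapped as well (0.20, interval -0.18 to 0.58). Batf was at 291, 329 and 304 in WT and 271 and 360 in LC-/- DETCs (0.02, interval -0.33 to 0.37).

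Whether a gene's change differed between the 2 populations was tested by the interaction of population and genotype. Fosl2 was called, with a change 0.92 higher in DETCs than in KCs on the log2 scale (SE 0.15, 95% interval 0.59 to 1.25, limma adjusted p = 0.0174). This was 1 of 10 members, where 0.617% of genes were called in that direction (89 genes, with 26 in the other, and 70 and 48 with quantile normalization). The call held in 6 of the 11 fits that leave out 1 library, with adjusted p of 0.0182 to 0.0717 and a difference of 0.86 to 0.98. Libraries whose removal ended it were WT KC replicates 2 and 3, LC-/- KC replicate 1 and both LC-/- DETC replicates. With the label number, which KC and DETC libraries share, as a replicate block, the difference was 0.89 and was not called (adjusted p = 0.156). For Fosb and Jund the differences of 0.57 and 0.52 did not pass (adjusted p = 0.379 and 0.337), nor did those of Fosl1 (0.34, adjusted p = 0.695) and Maff (0.04, adjusted p = 0.95).

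**Figure D4:**
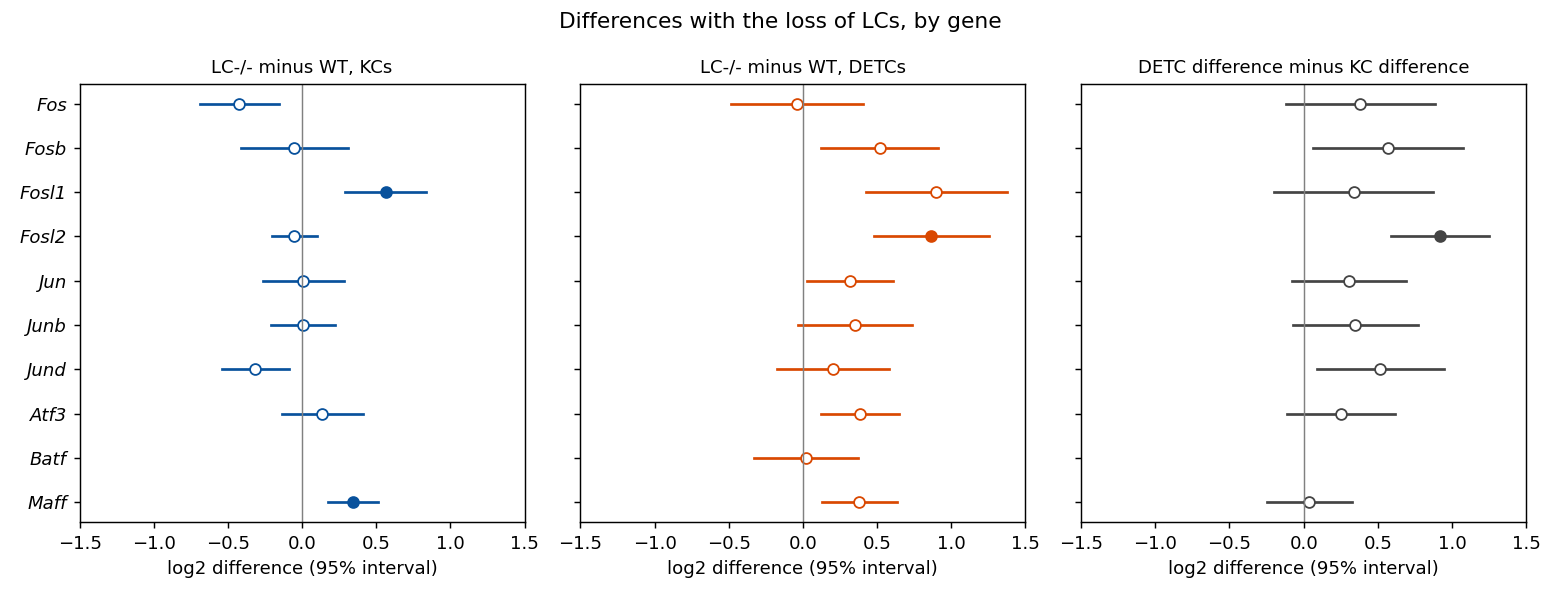
The log2 difference of each member between LC-/- and WT KCs, between LC-/- and WT DETCs, and the DETC difference minus the KC difference; points are limma estimates, lines are 95% intervals and filled points passed an adjusted p of 0.05. Batf is drawn for DETCs only. Fosl1 (0.56) and Maff (0.34) are filled in KCs, and Fosl2 in DETCs (0.87) and in the interaction (0.92).

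The make-up of the Fos group within a library was described by ratios of TPM, which do not depend on the scaling between libraries. In KCs the ratio of Fosl1 to Fos took values of 0.395, 0.322 and 0.375 in WT libraries, against 0.693, 0.748 and 0.720 in LC-/- libraries. Fosl1 thus went from 0.364 ± 0.038 (SD, n = 3) to 0.720 ± 0.028 of the Fos level, with a higher Fosl1 value and a lower Fos value in each LC-/- library. The exact permutation test (2-sided) gave p = 0.1, the smallest that 3 against 3 libraries allow. In DETCs the ratio of Fosl2 to Fos took values of 0.250, 0.231 and 0.201 in WT libraries, against 0.468 and 0.385 in the 2 LC-/- libraries, also without overlap. The exact permutation p was 0.2, the smallest that 3 against 2 libraries allow. The other ratios to Fos were also higher without overlap in LC-/- libraries. In KCs the mean ratio of Fosl2 to Fos went from 0.048 to 0.063 and that of Fosb to Fos from 0.460 to 0.596. In DETCs the mean ratio of Fosb to Fos went from 0.319 to 0.471 and that of Fosl1 to Fos from 0.032 to 0.066. The last ratio was 0.089 in LC-/- replicate 2, the library with the largest keratinocyte share, and 0.042 in replicate 3. Fosl1 counts of DETCs cannot be told apart from keratinocyte RNA. All 6 ratios share the Fos value as their divisor, which in KCs lay lower in each LC-/- library without passing the limma test. Of 10 ratios tested, all adjusted p-values were 0.286 or above. The ratio of Junb to Jun was 0.941 ± 0.092 in WT and 0.934 ± 0.028 in LC-/- KCs, and 6.56 ± 0.62 in WT against 6.71 ± 0.57 in LC-/- DETCs (n = 3, 3, 3 and 2; exact permutation p = 1 in both populations).

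**Figure D5:**
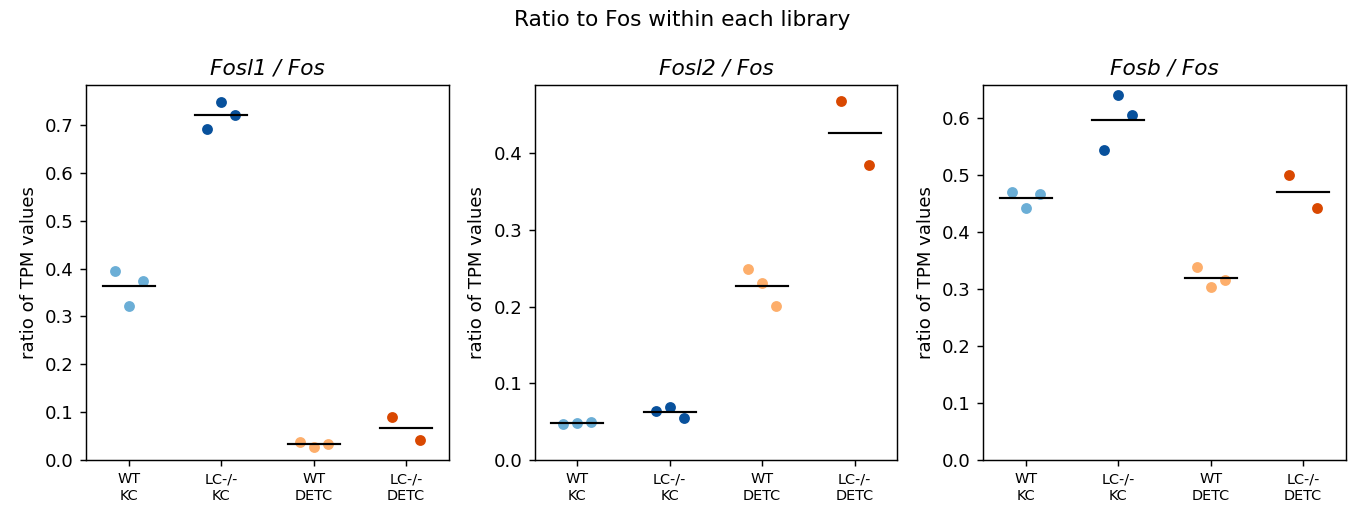
Ratio of the TPM of Fosl1, Fosl2 and Fosb to that of Fos within each library (vertical axes, linear from 0); points are libraries and bars are group means. Fosl1 to Fos in KCs lies at 0.322 to 0.395 in WT and 0.693 to 0.748 in LC-/- libraries.

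Other basic leucine zipper genes that pair or compete with AP-1 were read from a list of 20, of which 19 were tested. In KCs 5 were called higher and 1 lower (5 and 2 by DESeq2, 5 and 1 by edgeR), with a list median of 0.15 against -0.01 for all tested genes. Over all genes limma called 5.37% higher in KCs, and DESeq2 and edgeR called 12.2% and 12.4% in either direction. Atf6 (log2 difference 0.46), a sensor of endoplasmic reticulum stress, Ddit3 (0.45), which encodes the stress factor CHOP, and Mafg (0.40), a small Maf like Maff, rose, and Maf (-0.40) fell. In DETCs 3.13% of all genes were called higher by limma, 6.09% by DESeq2 and 2.84% by edgeR. Of the list 3 were called higher and 0 lower there (5 and 1 by DESeq2, 2 and 0 by edgeR), with a list median of 0.16 against 0.02. These were Nfe2l2 (0.83), which encodes the oxidative stress factor NRF2, Bach1 (0.63), a repressor at the same sites, and Crem (0.53), a cAMP-responsive factor. Bach1 and Nfe2l2 proteins bind DNA as dimers with small Mafs, the group to which Maff belongs.

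The MAP kinase pathways and ternary complex factors that switch on Fos and Jun formed a list of 24, with 23 tested. In KCs 4 were called higher and 0 lower, among them the kinases Map2k4 (0.56) and Map2k3 (0.52), serum response factor Srf (0.35) and its partner Elk4 (0.24). In DETCs 4 were called higher and 0 lower, namely the kinases Braf (0.99), Map3k1 (0.61) and Map2k3 (0.56), and Elk4 (0.46). For KCs, DESeq2 found 5 higher and 1 lower, and edgeR 5 and 2. For DETCs the counts were 7 and 1 by DESeq2, and 4 and 0 by edgeR. The list medians were 0.04 in KCs, against -0.01 for all tested genes, and 0.11 in DETCs, against 0.02. Of all tested genes, limma called 5.37% higher in KCs and 3.13% in DETCs. DESeq2 and edgeR called 12.2% and 12.4% in either direction in KCs, and 6.09% and 2.84% higher in DETCs.

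Among 28 other immediate early genes, 0 were called in KCs by limma, and the list median was 0.03 (8 passed an unadjusted p of 0.05, 6 of them higher; DESeq2 called 3 higher and 1 lower, and edgeR 2 higher). The 2 with the lowest p there were the nuclear receptor gene Nr4a2 (0.54, adjusted p = 0.0657) and Csrnp1 (0.22, adjusted p = 0.0822). Over all genes in KCs, DESeq2 and edgeR called 12.2% and 12.4% in either direction. In DETCs 3 of 28 were called higher and 0 lower, and 25 of 28 had a positive difference, with a list median of 0.25 against 0.02 for all tested genes. An unadjusted p of 0.05 was passed by 11, all higher, and DESeq2 called 7 and edgeR 4, beside 3.13% of all genes called higher by limma, 6.09% by DESeq2 and 2.84% by edgeR. Nr4a3, a nuclear receptor induced by T cell receptor signals, was at 47829, 60083 and 62018 normalized counts in WT and 113575 and 140919 in LC-/- DETCs (log2 difference 1.17, adjusted p = 0.024). Egr3 (0.58) and Ier3 (0.46) were the other 2. Both had higher mean normalized counts in WT KCs (5392 and 6696) than in WT DETCs (1781 and 2274). The part that keratinocyte RNA had in their DETC differences and in the list median was not tested. In the same libraries 10 of 10 heat shock genes had a positive difference, with a median of 0.45, and Hsp90aa1 (0.62) and Dnajb1 (0.51) were called higher (4 by DESeq2, 2 by edgeR). In KCs 1 of 10, Bag3 (0.27), was called. The part that the heat shock difference had in the values of the AP-1 members was not tested.

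Of 20 genes known as AP-1 targets in skin or lymphocytes, 3 were called higher and 1 lower in KCs, with a list median of 0.28 against -0.01. DESeq2 called 6 higher and 2 lower there, and edgeR 7 higher and 2 lower. Over all genes 5.37% were called higher in KCs by limma, and 12.2% and 12.4% were called in either direction by DESeq2 and edgeR. Plaur, the urokinase receptor gene, was at 250, 242 and 363 normalized counts in WT and 979, 768 and 992 in LC-/- KCs (log2 difference 1.69, adjusted p = 0.0207). Cd44, the hyaluronan receptor gene, differed by 0.89 and the cytoskeletal linker Ezr by 0.41, while Tnf was lower (-0.77). In DETCs 1 was called, Ptgs2 (1.13), which encodes cyclooxygenase-2 (DESeq2 called 2 and edgeR 1). The list median there was 0.29 against 0.02. Ptgs2 was far higher in KCs, with mean normalized counts of 7596 in WT and 11188 in LC-/- KCs, against 1043 and 2308 in DETCs. The part that keratinocyte RNA had in its DETC values was not tested for this gene. Of 11 genes whose proteins act with AP-1 in T cells, limma called 1, Stat3, in KCs (0.39) and in DETCs (0.75). DESeq2 called 4 of 11 higher in KCs and 2 in DETCs, and edgeR 4 and 1. The list medians were 0.19 in KCs and 0.29 in DETCs, against -0.01 and 0.02 for all tested genes. Over all genes in DETCs, 3.13% were called higher by limma, 6.09% by DESeq2 and 2.84% by edgeR.

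The genes whose log2 profile over the 11 libraries lay closest to that of a member, by the root mean square difference after centring each gene on its own mean, were sought among 9850 genes with a mean normalized count of at least 100. Nearest to Fosl2 was Pop4 (0.08 on the log2 scale), a subunit of ribonuclease P, and nearest to Maff was Ptpn1 (0.07), a tyrosine phosphatase gene. Atf3 lay nearest to Egr2 (0.07), and Jun had Id4, Tnfrsf1a and Egr1 as its 3 nearest. Fosl1 lay nearest to Fam83g (0.10), Lima1 and Cxcl16, and Fos to Atm (0.09), Taf2 and Wrn. Junb had Tbc1d10b (0.07), Ubb and Stk11, Jund had Bicra, Ank and Kxd1, and Fosb had Lrig1, N4bp2 and Ncoa4. Batf lay nearest to Mpped2 (0.13). These distances are a description over 11 libraries of 4 groups.

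The genes were located on GRCm38 with GENCODE M21. Fos lies at chr12:85473890-85477273, Fosl1 at chr19:5447547-5455946, Fosl2 at chr5:32135801-32157842 and Maff at chr15:79346621-79359076, all on the plus strand. Junb overlaps Prdx2 on the other strand, which reached 1207 normalized counts, Fosl1 overlaps Ccdc85b (at most 154), Jund overlaps Gm11175 (at most 210), and Jun overlaps the antisense gene Junos (at most 74.3). The strand setting of the counting was not given in the sources used here, so reads in such overlaps are uncertain.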

How the data were processed

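RNA of sorted KCs and DETCs was sequenced as paired 75-base reads, in 11 libraries. Per the study, each library of a population came from a separate animal. The authors trimmed with cutadapt (quality below 20 removed), aligned to GRCm38 with hisat2, counted with featureCounts and deposited a signal of counts per gene divided by median-of-ratios size factors, which they took from DESeq2. Versions were not given in the sources used here. Each library's values were whole multiples of 1 step, and 100.0% of values came out whole within 0.002 of a read, so reads were recovered.

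Members were matched by Ensembl identifier and symbol. The members, gene lists and named genes were chosen with earlier results of these data known. Every member was named, and up to 4 called genes per list with the largest log2 differences. For each member the 3 nearest profiles were named. Genes above 1 CPM in at least 2 libraries were kept (14419 of 52550). TPM were computed from recovered reads and GENCODE M21 exon lengths. The main test was limma 3.58.1 with trend (R 4.3.3) on log2(normalized count + 1), with Benjamini-Hochberg adjustment over all tested genes and a threshold of 0.05. Fold changes are on that scale and understate those of low genes. P-values measure the spread between these libraries. Alternatives were other pseudocounts, filters and scalings, DESeq2 1.42.0 and edgeR 4.0.16 on recovered reads, no trend, a fit over all libraries, a replicate block and leaving out each library. The fits were tested on simulated data. Floors are 3 reads and, like the intervals of counts, cover counting error only. Promoter windows came from RefSeq.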

Additional observations from a re-analysis of the deposited data

Results flagged for a closer look

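Among the members and the genes of the pathway lists, 7 had a difference in the change with LC loss between DETCs and KCs that passed the interaction test by limma. For Fosl2 the change was 0.92 higher in DETCs on the log2 scale (adjusted p = 0.0174), and both LC-/- DETC libraries lay above the 3 WT libraries while the KC groups overlapped. With a replicate block this difference was 0.89 and not called (adjusted p = 0.156). Nr4a3 differed by 1.0 (adjusted p = 0.0319), Braf by 0.89 (adjusted p = 0.0113), Nfe2l2 by 0.69 (adjusted p = 0.0146) and Map3k1 by 0.57 (adjusted p = 0.0226), each with the larger rise in DETCs. Tnf differed by 0.88 (adjusted p = 0.0492), with a KC difference of -0.77 and a DETC difference of 0.11. Atf6 differed by -0.56 (adjusted p = 0.0473), with a KC difference of 0.46 and a DETC difference of -0.09. Of the cell type markers, Cd3g was also called (-2.01, adjusted p = 0.0308), a T cell gene with mean normalized counts of 0.94 in WT and 6.39 in LC-/- KCs.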

How the results depend on the processing

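In KCs 1042 genes and 2 members were called. Without a filter these were 73 and 0, with quantile normalization 633 and 1, with DESeq2 1757 and 4, and with edgeR 1783 and 4. Members called were 0 with TMM scaling, 0 without trend and 1 in the fit over all 11 libraries. Leaving out 1 library gave 5 to 721 genes (5 without LC-/- replicate 1, 721 without LC-/- replicate 2) and 0 members.

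In DETCs 514 genes and 1 member were called. These were 0 and 0 without a filter (unadjusted p under 0.05 in 1995 genes higher and 1070 lower), 0 and 0 without trend (1554 and 853), 0 and 0 with the keratinocyte share subtracted (1099 and 1219), 263 and 0 with quantile normalization, 1094 and 6 with DESeq2, and 959 and 3 in the fit over all libraries. With a pseudocount of 8, 0 members were called, since the adjusted p of Fosl2 was then 0.0521. Leaving out 1 library gave 35 (without LC-/- replicate 2) to 590 genes (without LC-/- replicate 3) and 0 to 1 members. The lone LC-/- library left is then assumed to vary like the others.

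For the interaction, 115 genes and 1 member were called: 310 and 2 with DESeq2 (Fosb as well as Fosl2), 22 genes without trend, and 364 genes with the share subtracted (143 higher, 221 lower). Leaving out 1 library gave 32 to 138 genes and 0 to 1 members. KC and DETC libraries share numbers in the labels, which do not say that the number is the mouse. Deviations of same-numbered libraries had correlations across genes from -0.0534 to 0.143, not all over 0.1. With so few libraries per group these cannot decide whether the libraries are paired. The main test assumed no pairing, and the interaction call of Fosl2 depends on that choice. The replicate block gave 18 genes and 0 members, with Fosl2 at 0.89 (adjusted p = 0.156).

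The sign of some member differences turned. With quantile normalization these were Jun (-0.053) and Junb (-0.15) in KCs, Jun (-0.013) and Jund (-0.14) in DETCs, and Atf3 (-0.040) and Maff (-0.12) in the interaction. With TMM scaling they were Jun (-0.0026) and Junb (-0.0085) in KCs and Batf (-0.022) in DETCs, and with edgeR Batf (-0.011) in DETCs. With the share subtracted, Fosl1 was at -2.47 and Atf3 at -0.63 in DETCs, and at -3.04 and -0.76 in the interaction. The subtracted Fosl1 values were set to 0 in all DETC libraries but WT replicate 1. For Atf3 the 2 subtracted LC-/- DETC values lay on opposite sides of the WT range. Leaving out 1 library gave ranges across 0 for Fosb (-0.14 to 0.063), Jun (-0.053 to 0.061) and Junb (-0.032 to 0.052) in KCs, Fos (-0.24 to 0.16) and Batf (-0.18 to 0.23) in DETCs, and Fosl1 (-0.0031 to 0.68) and Maff (-0.041 to 0.11) in the interaction. The cause of these turns was not tested. Results were counted over all members and comparisons, leaving aside Batf in KCs and in the interaction. With 1 library left out, 226 results kept direction and side of the threshold, 21 lost a call, 2 gained a call and 14 turned sign. Under the other alternatives these were 372, 17, 16 and 14. The 9 members called between WT DETCs and WT KCs kept their call with each library left out.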
